A study of Mus musculus with 17 samples.

Results

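To examine how the promoters of the genes that build and resolve paired chromosomes in meiosis carried the histone variant H3.3, 40 gene names were scored in the H3.3 peak lists made from pachytene spermatocytes of Arid1a WT and Arid1a cKO males. The names cover the chromosome axis and its cohesins, the central region of the synaptonemal complex, strand exchange, crossover formation, telomere attachment and entry into meiosis. Hei10 is a synonym of Ccnb1ip1 and was counted once, and Tex11 lies on the X chromosome and was left out. The remaining 38 autosomal genes were set against all 20807 autosomal protein-coding genes of GENCODE M21 on mm10, among which they are counted.

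The assay was CUT&RUN: a nuclease tethered to the H3.3 antibody cuts chromatin beside the bound histone, and the fragments it frees are sequenced. The Arid1a cKO males were Arid1a fl/fl with the Stra8-Cre transgene, and the Arid1a WT males carried Arid1a fl/fl or fl/+ alleles, and the floxed mice were kept on a CD1 background. Stra8-Cre acts from the spermatogonial stage onwards, and mutant testes also hold escaper spermatocytes that kept ARID1A. Pachytene spermatocytes were enriched by sedimentation from the pooled testes of adult males, so that a library is no single animal and holds other cells as well. The series has 17 libraries, of which 5 were made with the H3.3 antibody (2 from Arid1a WT, 3 from Arid1a cKO). The other 12, made with ARID1A antibodies, were not analysed here. Each genotype has 1 list that combines its libraries, so no value below has a replicate error, no difference between genotypes can be tested, and depth is unknown. The lists hold no measure of Arid1a itself, so the labels could not be checked against its deletion, nor the cell type against expressed markers.

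Homologous chromosomes are held together in pachynema by the synaptonemal complex. Its lateral elements form on a cohesin-based axis, and transverse filaments and central element proteins join the axes. Programmed breaks are repaired on the homolog by strand exchange, and a few of the intermediates become crossovers under the control of the MutS and MutL homologs and of SUMO and ubiquitin ligases. H3.3 is placed on chromatin outside of replication and is known from active promoters and from the silenced sex chromosomes of pachytene cells.

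In Arid1a cKO, 21 of the 38 genes had an H3.3 region within 1 kb of a transcript start, a share of 55.3% (95% Wilson interval 39.7 to 69.9%). Among all autosomal coding genes, 6145 of 20807 had one, a background of 29.5%. Where the centre of the region had to lie between 1 kb upstream and 100 bp downstream of a start, the count fell to 11 of 38 (28.9%), against 21.1% of all genes. That difference is smaller, and no interval was computed for it. In Arid1a WT none of the 38 genes had a region, and neither did any other autosomal coding gene (0 of 20807, a background of 0%). The WT list held 4 autosomal regions in all, and the nearest of them to a start of these genes lay 271.5 kb from Tex12. The absence in WT is therefore shared by every autosomal coding gene and says nothing particular about the meiotic genes. It is an absence from a list of called peaks and not of H3.3 itself. From read coverage, the paper reports H3.3 above IgG at the starts of autosomal genes regulated by ARID1A, and more of it in cKO than in WT. The lists also differ in how weak a row they hold. The lowest fold enrichment over IgG was 4.85 in WT and 2.80 in cKO, and the lowest -log10 p was 6.12 and 4.21. At or above both WT minimums stood the cKO regions of 8 genes (Sycp2, Msh5, Trip13, Ythdc2, Meiob, Stag3, Smc3 and Sycp3), and the regions of the other 13 fell below at least one of them. These 8 of 38 genes are 21.1% (interval 11.1 to 36.3%), against 1732 of all 20807, a background of 8.32%.

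The sequences that these results turn on are promoters, and 5 are shown as RefSeq gives them on GRCm38.p6, from 250 bases before to 50 bases after a start. Sycp2, Msh5 and Trip13 had the highest folds with a region over the start, and Sycp1 and Hormad1, which act in the same structures, had no region. CpG dinucleotides are in capitals.
Sycp2 (chr2:178407609-178407908, minus strand): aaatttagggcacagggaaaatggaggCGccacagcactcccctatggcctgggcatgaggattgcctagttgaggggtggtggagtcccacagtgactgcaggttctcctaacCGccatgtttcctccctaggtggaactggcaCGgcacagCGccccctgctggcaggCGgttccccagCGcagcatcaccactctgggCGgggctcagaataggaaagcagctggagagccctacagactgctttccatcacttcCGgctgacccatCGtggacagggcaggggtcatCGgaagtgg
Msh5 (chr17:35046573-35046872, minus strand): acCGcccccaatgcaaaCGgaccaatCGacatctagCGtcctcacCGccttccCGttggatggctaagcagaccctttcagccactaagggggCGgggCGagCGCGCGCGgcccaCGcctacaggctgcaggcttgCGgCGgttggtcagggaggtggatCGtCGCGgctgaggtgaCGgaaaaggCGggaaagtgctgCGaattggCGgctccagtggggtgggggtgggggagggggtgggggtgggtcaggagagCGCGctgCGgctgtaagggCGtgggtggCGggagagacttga
Trip13 (chr13:73937718-73938017, minus strand): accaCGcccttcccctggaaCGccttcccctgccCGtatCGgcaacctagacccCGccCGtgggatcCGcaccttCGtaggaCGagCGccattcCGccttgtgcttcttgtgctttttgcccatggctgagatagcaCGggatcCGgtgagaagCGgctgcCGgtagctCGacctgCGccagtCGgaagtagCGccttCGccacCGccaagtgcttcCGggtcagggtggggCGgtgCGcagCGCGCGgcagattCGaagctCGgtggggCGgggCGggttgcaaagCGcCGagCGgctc
Sycp1 (chr3:102936051-102936350, minus strand): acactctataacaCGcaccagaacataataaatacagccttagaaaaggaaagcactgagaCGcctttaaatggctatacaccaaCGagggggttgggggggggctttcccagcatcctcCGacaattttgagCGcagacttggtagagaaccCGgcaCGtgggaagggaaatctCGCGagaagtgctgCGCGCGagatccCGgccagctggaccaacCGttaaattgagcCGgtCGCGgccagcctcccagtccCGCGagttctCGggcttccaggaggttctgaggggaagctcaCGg
Hormad1 (chr3:95559427-95559726, plus strand): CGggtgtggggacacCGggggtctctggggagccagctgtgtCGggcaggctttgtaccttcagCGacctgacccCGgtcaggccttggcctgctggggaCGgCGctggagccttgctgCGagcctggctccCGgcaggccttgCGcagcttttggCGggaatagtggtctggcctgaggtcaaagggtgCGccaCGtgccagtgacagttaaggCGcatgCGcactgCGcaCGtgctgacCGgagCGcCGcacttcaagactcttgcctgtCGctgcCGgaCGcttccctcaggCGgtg
The Sycp2 window held 10 CpG dinucleotides, an observed over expected ratio of 0.36, and 64 of its bases lay in the H3.3 region. The Msh5 window held 27 (ratio 0.86) with 234 bases in the region, and that of Trip13 held 34 (ratio 1.00) with 151 bases in the region. Sycp1 with 21 CpG (ratio 0.87) and Hormad1 with 24 (ratio 0.71) were richer in CpG than Sycp2. Among these 5 chosen windows, that of the gene with the highest fold had the poorest CpG content, though most of it lay outside the region. A CpG-rich window was also found without a region. Over all genes the share with a region rose with CpG content, from 3.42% at ratios under 0.3 to 57.8% at 0.8 and over.

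Of the genes of the axis and its cohesins 4 of 8 were listed (50.0%, interval 21.5 to 78.5%), with a median fold of 5.39. That interval contains the background of 29.5%. Sycp2, which with SYCP3 forms the axial elements, had a fold of 6.56 (-log10 q 9.83) over 575 bp at chr2:178407098-178407672. This was the highest fold and the highest -log10 q of the 38 genes, at the 93.7th percentile of fold among the 6145 genes with a region. Sycp3, its partner, had a fold of 4.94 (-log10 q 6.16) over 447 bp at chr10:88459607-88460053. Stag3, the meiotic cohesin subunit that binds the kleisins, had a fold of 5.48 over 432 bp at chr5:138279855-138280286. Smc3, the cohesin ATPase used in mitosis and meiosis alike, had a fold of 5.30 over 587 bp at chr19:53599969-53600555. No region was found for Rec8 or Rad21l, the meiotic kleisins, for Smc1b, the meiotic partner of SMC3, or for Hormad1, which marks unsynapsed axes. Their nearest regions lay 18.39, 68.05, 53.65 and 98.82 kb from a start. Of the cohesin genes, the shared Smc3 and the meiotic Stag3 were thus listed and the meiotic kleisins and Smc1b were not, a difference that was not tested. Stag3 was lost where a region was given only to the gene with the nearest start.

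**Figure D1:**
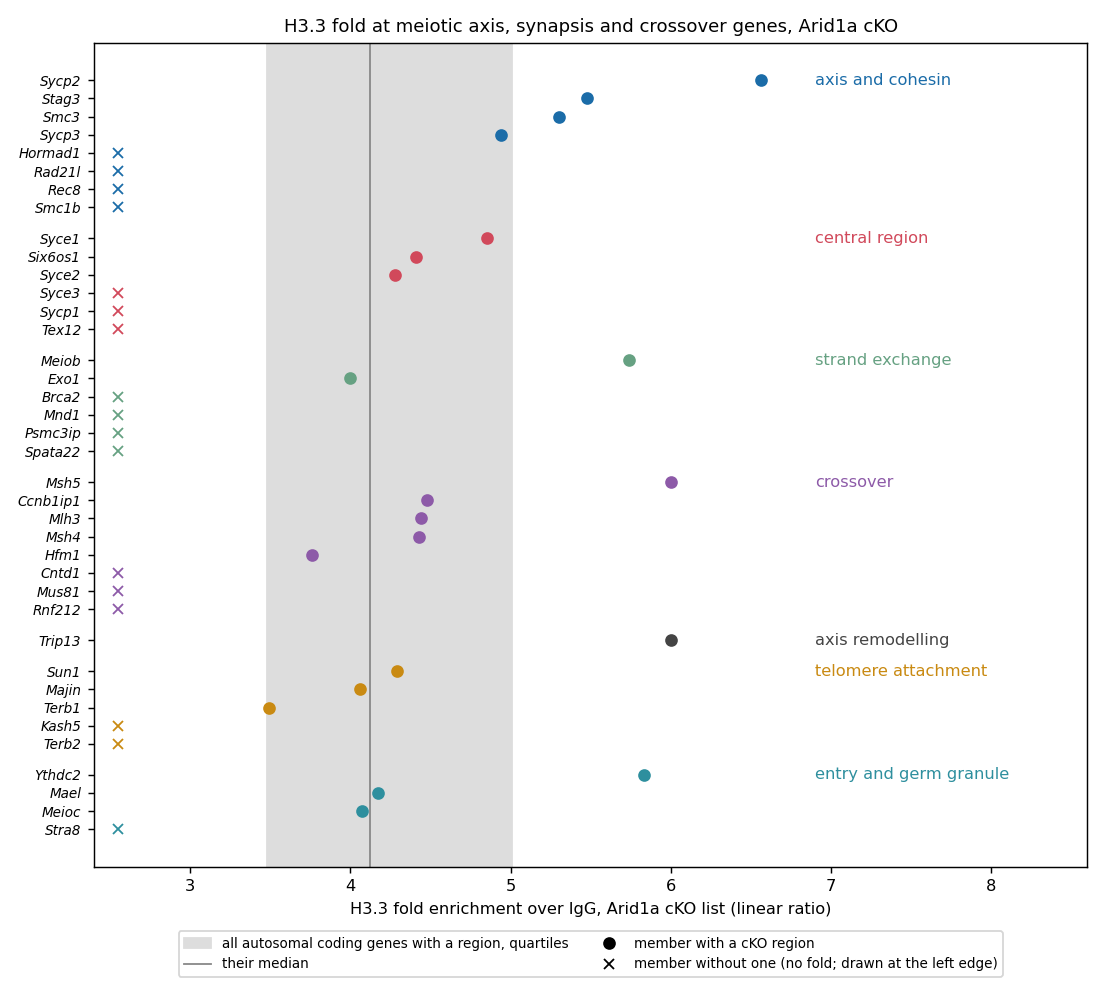
H3.3 fold enrichment over IgG (x axis, linear ratio) in the combined Arid1a cKO list for each of the 38 autosomal genes, grouped by role; points are genes with a region within 1 kb of a start, crosses are genes without one and have no fold. The grey band spans the quartiles 3.48 to 5.01 and the line the median 4.12 of the 6145 autosomal coding genes with a region, and Sycp2, at 6.56, lies farthest to the right.

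In the central region of the synaptonemal complex 3 of 6 genes were listed (50.0%, interval 18.8 to 81.2%), an interval that contains the background of 29.5%. Syce1 and Six6os1, whose proteins bind each other in the central element, had folds of 4.85 over 547 bp at chr7:140787413-140787959 and 4.41 over 433 bp at chr12:72917462-72917894. Syce2 had a fold of 4.28 over 403 bp at chr8:84872222-84872624. Its complex partner Tex12 was not listed, with the nearest region 42.56 kb away, and neither was Syce3 (14.70 kb). Sycp1, which encodes the transverse filament that spans the axes, had its nearest region 59.61 kb away. The 3 folds spanned a narrow range, all under the lowest fold of the axis genes.

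Of the strand exchange genes 2 of 6 were listed (33.3%, interval 9.68 to 70.0%), a share near the background of 29.5%. Meiob, a single-strand DNA binding protein of meiotic recombination, had a fold of 5.74 (-log10 q 6.89) over 263 bp at chr17:24804276-24804538. Exo1, the exonuclease that resects break ends and later acts in crossover formation, had a fold of 4.00 over 233 bp at chr1:175880723-175880955, the narrowest region and, at 2.86, the weakest -log10 q of the 21. The partner of MEIOB, Spata22, had no region within 129.91 kb. Psmc3ip and Mnd1, which encode the complex that assists the recombinases, were both unlisted (23.56 and 389.17 kb), and so was Brca2, which loads the recombinases (25.11 kb).

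Of the crossover genes 5 of 8 were listed (62.5%, interval 30.6 to 86.3%), against the background of 29.5%. The lower bound lies just above that background. The call of Ccnb1ip1 was lost with RefSeq transcripts, and its region also lay near starts of Parp2 and Rpph1. Msh5 and Msh4 encode the heterodimer that stabilises crossover intermediates, and both had a region. That of Msh5 had a fold of 6.0 (-log10 q 5.65) over 505 bp at chr17:35046302-35046806 and covered 6 of its 11 starts. That of Msh4 had a fold of 4.43 over 556 bp at chr3:153905399-153905954 and covered none of its 7 starts, beginning 184 bp downstream of the nearest. Mlh3, a subunit of the nuclease that resolves crossovers, had a fold of 4.44 over 318 bp at chr12:85270369-85270686. Hfm1, a helicase of the same pathway, had a fold of 3.76 over 487 bp at chr5:106925853-106926339, and Ccnb1ip1, the ligase HEI10, had a fold of 4.48 over 298 bp at chr14:50807478-50807775. Rnf212, the SUMO ligase counterpart of HEI10, was not listed (54.50 kb), and neither was Cntd1, a cyclin-related crossover factor (30.15 kb). Mus81, the nuclease of the minor crossover pathway, had a region 1.97 kb from its nearest start, which lay within 1 kb of a start of Cfl1.

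Trip13, the ATPase that strips HORMA proteins from synapsed axes, had a fold of 6.0 (-log10 q 8.48) over 428 bp at chr13:73937441-73937868, while the gene of its substrate, Hormad1, had none. Of the telomere attachment genes 3 of 5 were listed (60.0%, interval 23.1 to 88.2%), an interval that contains the background of 29.5%. Sun1, which spans the inner nuclear membrane, had a fold of 4.29 over 725 bp at chr5:139200456-139201180, the widest region of the 21. Majin and Terb1, which encode parts of the complex that ties telomeres to the membrane, had folds of 4.06 over 403 bp at chr19:6184368-6184770 and 3.49 over 322 bp at chr8:104509548-104509869. That of Terb1 was the lowest fold of the 21. Terb2, the third subunit, and Kash5, which links SUN1 to dynein, had no region within 48.11 and 35.46 kb.

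Entry into meiosis and the germ granule had 3 of 4 genes listed (interval 30.1 to 95.4%), against the background of 29.5%. The lower bound lies just above that background, and the group holds only 4 genes. The call of Ythdc2 was lost with a limit of 500 bp. Meioc, an RNA regulator of the meiotic programme, had a fold of 4.07 over 676 bp at chr11:102665435-102666110. Ythdc2, the helicase that MEIOC binds, had a fold of 5.83 (-log10 q 7.0) over 473 bp at chr18:44828431-44828903. Mael, a germ granule protein of the piRNA pathway, had a fold of 4.17 over 362 bp at chr1:166238359-166238720. Stra8, the transcription factor of meiotic entry, had its nearest region 9.09 kb away.

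Within the cKO list the 21 regions had a width near that of other genes' regions and a somewhat higher fold and -log10 q, differences that were not tested. Their fold had a median of 4.44 (range 3.49 to 6.56) against 4.12 (quartiles 3.48 to 5.01) for all 6145 genes with a region, and all 21 stood at or above the lower quartile, 16 at or above the median and 7 at or above the upper quartile. Width had a median of 433 bp (range 233 to 725 bp) against 450 bp (quartiles 314 to 667 bp). The -log10 q had a median of 5.14 against 3.92. Each gene had 1 region, and each region was written in 2 rows of the list, as an intersection of libraries can write a peak more than once. Over all genes with a region 91.6% had 2 or more rows. Since a fold has no error here, the order of neighbouring genes by fold was not tested.

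Because the weakest regions could decide a count, the shares were taken again at higher thresholds. At a -log10 q of at least 3, 20 of 38 genes (52.6%, interval 37.3 to 67.5%) kept a region against a background of 20.8%, with Exo1 lost. At a -log10 q of at least 5, 12 of 38 (31.6%, interval 19.1 to 47.5%) did so against 9.56%. All genes of the axis group that were listed, Sycp2, Sycp3, Stag3 and Smc3, were among the 12. The telomere attachment genes Sun1, Majin and Terb1 were all among the 9 that were not. Of all 6145 autosomal coding genes with a region, 1989 kept one at this threshold. Both groups are small, and a difference between them was not tested.

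**Figure D2:**
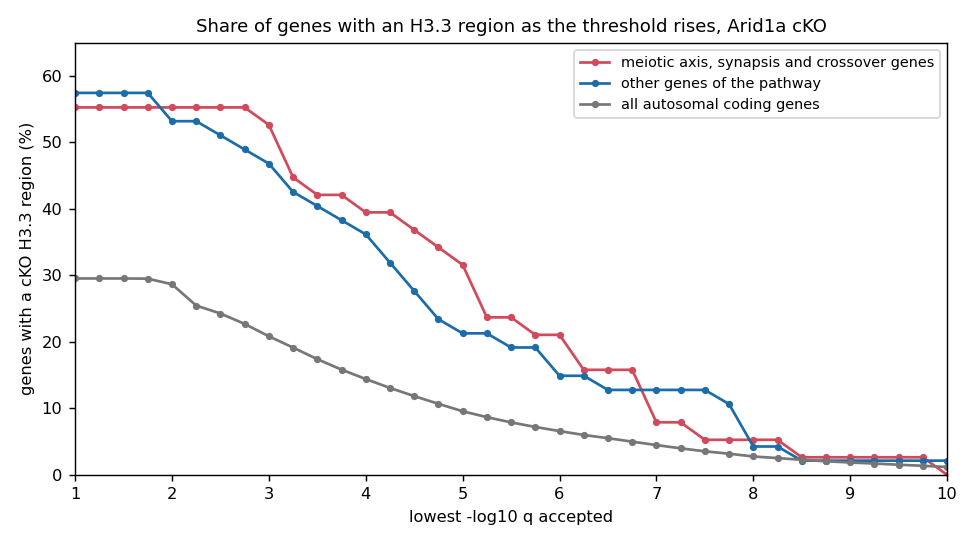
Share of genes with an H3.3 region within 1 kb of a start in Arid1a cKO (y axis, percent) against the lowest -log10 q accepted (x axis), for the 38 meiotic genes, the 47 other genes of the pathway and all 20807 autosomal coding genes. At 3 the shares are 52.6, 46.8 and 20.8%, and at 5 they are 31.6, 21.3 and 9.56%.

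Most regions lay on the start and extended into the gene. A start was covered in 17 of 21 genes (81.0%, against 76.8% of all genes with a region), and the exceptions were Msh4, Terb1, Mael and Ythdc2, whose regions began 184, 13, 24 and 685 bp downstream. The centre was downstream of the nearest start in 17 of 21 (81.0%, interval 60.0 to 92.3%), against 61.4% of all genes with a region, and upstream in Stag3, Smc3, Syce2 and Msh5, at -170, -136, -15 and -12 bp. The median distance from centre to start, without sign, was 133 bp, against 112 bp for all. By annotation, 11 centres lay in an exon of the gene, 8 in an intron and 2 (Stag3 and Smc3) upstream of the gene. Just inside the limit of 1 kb stood Ythdc2, with its centre 921 bp into the gene, and just outside it stood Mus81, at 1.97 kb. The next nearest gene without a region was Stra8, at 9.09 kb, and a limit of 500 bp or of 2 kb changed the call of 1 gene each (Ythdc2 lost, Mus81 gained). A limit on the centre of 100 bp downstream lost 10 of the 21.

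**Figure D3:**
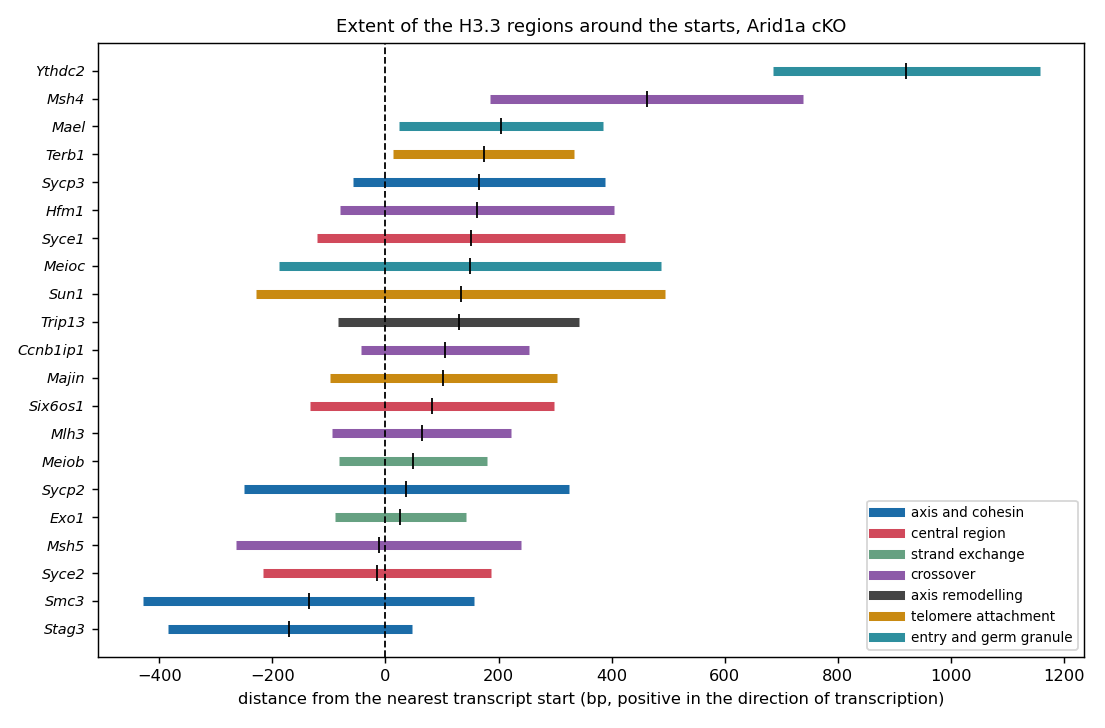
Extent of the H3.3 region of each of the 21 listed genes in Arid1a cKO (bars) relative to its nearest transcript start (dashed line at 0), in bp with positive values in the direction of transcription, coloured by role; the tick on each bar is the centre. The bars of 17 genes cross a start and those of Msh4, Terb1, Mael and Ythdc2 lie wholly downstream.

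A region near a start can belong to a neighbour. That of Stag3 also lay within 1 kb of starts of the coding genes Gpc2 and Gm43720, that of Trip13 of Brd9, that of Ccnb1ip1 of Parp2 and of the noncoding Rpph1, and that of Smc3 of the unconfirmed transcript AC137853.1. The regions of the other 17 genes had no start of another gene within 1 kb. Coding genes with a head-to-head coding neighbour within 1 kb had a region in 61.7% of cases (1450 of 2350), against 25.4% (4695 of 18457) without one. Of the meiotic genes, 7 had such a neighbour, and 3 of those had a region (Stag3, Ccnb1ip1 and Trip13, but not Smc1b, Spata22, Cntd1 or Terb2). Among the 31 without such a neighbour 18 had one, 58.1% (interval 40.8 to 73.6%).

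Promoter sequence was compared next, since CpG content moved with the presence of a region in the whole list. RefSeq windows were matched for 33 of the 38 genes (17 with and 16 without a region) and for 16019 of all. Exo1, Majin, Meiob, Terb2 and Ythdc2 were not in the table. Over all genes, 3.42% of promoters with a CpG observed over expected ratio under 0.3 had a region, 17.0% from 0.3 to under 0.6, 44.7% from 0.6 to under 0.8 and 57.8% at 0.8 and over. The meiotic genes had a region in 0 of 1, 3 of 8, 6 of 9 and 8 of 15 in these classes. Syce3 was the only one of the 33 under 0.3, where 30.1% of all promoters lay. Weighting the shares of all genes by the classes of the 33 gave 42.7%, equal to 14.1 genes, against 17 observed (51.5%, interval 35.2 to 67.5%). The weighted share lies inside that interval, so a difference from genes of like CpG content was not detectable with 33 genes. The median ratio was 0.78 in the listed and 0.71 in the unlisted meiotic genes, while over all genes it was 0.83 with and 0.39 without a region. Brca2 (1.05), Smc1b (1.08) and Tex12 (0.91) had no region at high ratios, and Sycp2 (0.36) and Msh4 (0.44) had one at low ratios. For Msh4, Syce2 and Ccnb1ip1 the region overlapped 0 bases of the RefSeq window, which stands at another start. For Sycp2 it overlapped 64 of the 300 bases, so the ratio mostly describes sequence outside the region.

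**Figure D4:**
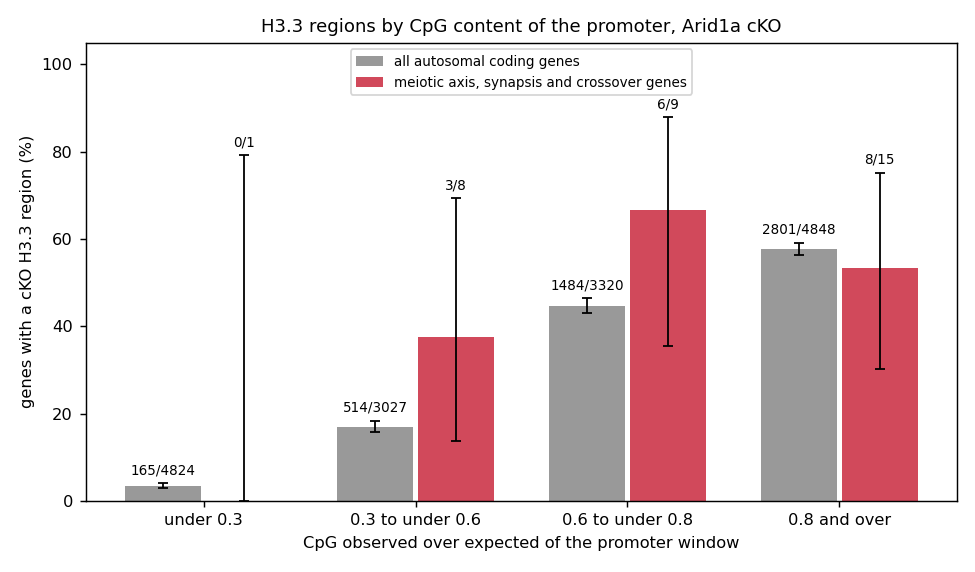
Share of genes with an H3.3 region within 1 kb of a start in Arid1a cKO (y axis, percent) by the CpG observed over expected ratio of the promoter window (x axis), for all autosomal coding genes (grey) and the 33 meiotic genes with a window (red); bars are shares, lines 95% Wilson intervals and the labels counts. The grey bars rise from 3.42 to 57.8%, and the intervals of the red bars contain the grey share in each class, the lowest of which holds 1 meiotic gene.

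Motifs of factors known from germ cells or from CpG-rich promoters were looked for on both strands of the same windows. The E2F motif GGCGGGA was in 6 of 17 listed and 5 of 16 unlisted meiotic genes, against 15.8% of all promoters. The E-box CACGTG was in 4 of 17 and 5 of 16, against 8.07%. The letters CNCCTCAG, reported for STRA8, were in 4 of 17 and 2 of 16, against 8.73%, and the NRF1 core TGCGCA was in 5 of 17 and 4 of 16, against 10.3%. The MYB motif AACNGNCA was in 2 of 17 and 4 of 16, against 10.1%, and the CCAAT box in 7 of 17 and 8 of 16, against 38.7%. Over all genes with a region, in the same order, the shares were 25% for E2F, 10.8% for the E-box, 10.6% for the STRA8 letters, 17.9% for NRF1, 9.13% for MYB and 40.0% for the CCAAT box. Each of the 6 motifs was more frequent over the 33 meiotic genes than over all promoters, by a margin that was not tested, and the counts with and without a region differed by at most 2 genes in any motif. A match of letters is no evidence of binding.

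Other genes of the pathway, which were not among the 38, gave a like share. Of 49 names 47 were matched, and 27 of the 47 (57.4%, interval 43.3 to 70.5%) had a region in Arid1a cKO against the same background of 29.5%. RefSeq windows were matched for 33 of these genes, and 26 of the 33 (78.8%) had a CpG ratio of 0.6 and over. Of all genes, 44.7% had a region at ratios from 0.6 to under 0.8, and 57.8% at 0.8 and over. A difference from genes of like CpG content was not tested here. Their folds had a median of 4.50. Among the highest were those of Rbbp8, which encodes the resection factor CtIP, at 6.79, Pms2, a mismatch repair gene, at 6.10, Rmi1, of the BLM dissolution complex, at 5.89, and Ewsr1, an RNA-binding protein, at 5.84. The other cohesin genes, their loaders and their regulators with a region included Rad21 (4.36), Stag1 (5.08), Nipbl (5.59), Mau2 (4.65), Esco1 (5.02), Pds5a (5.00), Wapl (4.44) and Pds5b (3.20). The break sensor genes Nbn (5.08), Rad50 (4.50) and Mre11a (3.37) had one as well. The folds of Pds5b and Mre11a lay below the lower quartile of 3.48 for all genes with a region. Among genes known chiefly from germ cells, Meiosin, the partner of STRA8 (5.13), Hsf2bp (3.92), Ankrd31 (3.89) and Rnf212b (2.88) had a region. The 20 without a region were of both kinds. They were Hormad2, Iho1, Mei1, Mei4, Rec114, Shoc1, Brme1, Meikin, Mcmdc2, Prr19, Fkbp6 and Sgo2b, and also Blm, Top3a, Eme1, Plk1, Aurkb, Esco2, Sgo1 and Sun2, which serve somatic cells too. Most of these other genes known chiefly from germ cells thus had no region, while most of those that serve somatic cells too had one. The share of 57.4% therefore rests mainly on the latter, and the difference between the kinds was not tested.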

How the data were processed

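H3.3 CUT&RUN was done on 2 Arid1a WT and 3 Arid1a cKO libraries, grouped by their sample titles. The authors aligned paired reads to mm10 with Bowtie2, removed duplicates with Picard, called broad peaks with MACS2 against rabbit IgG libraries from juvenile testes of another study, and intersected the replicates. This gave 1 deposited list per genotype (228 rows for WT, 12183 for cKO). Each deposited row has a fold enrichment, a ratio of pileup over background, and each deposited row also has a -log10 p and a -log10 q. Because the lists are combined, depth and replicate spread are unknown. Unmatched columns of single samples numbered 0.

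Rows overlapping by at least 1 bp were merged (228 and 6552 regions), and a region counted for a gene where its edge lay within 1 kb of any GENCODE M21 transcript start. Where a gene has several regions the highest fold is given. Distances are to the start nearest the centre. The 95% Wilson intervals take genes as independent and include no error but that of counting. No set test or test of genotype was run. Every gene of the list is accounted for by name, and of the other pathway genes those with the highest fold and some further examples, the latter chosen after their values were seen; 1 gene of that list is not reported here by name. The genes, lists and motifs were chosen with earlier results of these data known, and the CpG class limits after the values were seen. CpG observed over expected is the count of CG times the window length over the product of the counts of C and G, in the RefSeq window nearest the gene's 5' end. The matching was tested on simulated data with planted regions. Alternatives covered the window, transcripts, -log10 q, row support and, added later, the nearest start. Python 3.11.15, pandas 2.3.3 and numpy 2.4.6 were used.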

Additional observations from a re-analysis of the deposited data

How the results depend on the processing

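The 21 listed genes of the 38 became 20 to 22 with starts within 500 bp (Ythdc2 lost) or 2 kb (Mus81 gained), with RefSeq transcripts (Ccnb1ip1 lost), at a -log10 q of at least 3 (Exo1 lost), or with a region given only to the gene with the nearest start, an alternative chosen after seeing the data (Stag3 lost). They became 19 with 1 start per gene (Meioc and Six6os1 lost), and stayed the same 21 with the centre within 1 kb, with coding transcripts only or with regions of 2 or more rows. The count fell to 11 where the centre had to lie between 1 kb upstream and 100 bp downstream of a start, since the centres of the other 10 lie farther into the gene, and the median distance then was 64 bp. It fell to 12 at a -log10 q of at least 5. The background share of 29.5% was 28.9% within 500 bp, 21.1% with the promoter definition, 27.2% with 1 start per gene, 27.1% with 2 or more rows, 24.8% with the nearest start, 20.8% at a -log10 q of 3 and 9.56% at 5. With the promoter definition the genes' share was 28.9%, against 21.1%, a smaller difference for which no interval was computed. The medians of fold and width moved by less than 1.5 times under every alternative, and the WT count was 0 under each. No paired analysis was possible because the libraries of a genotype were merged into 1 list, and for the same reason no library could be left out.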
